A study of Peromyscus maniculatus with 16 samples.

Results

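The genes described here encode enzymes that build triglyceride in the liver, together with the lipid droplet protein Pnpla3. Of 10 genes listed by symbol (Gpam, Gpat4, Agpat2, Agpat3, Lpin1, Lpin2, Dgat1, Dgat2, Mogat1 and Pnpla3), 9 were among the 16910 genes of the count table, and Dgat1 was not analysed here. RNA was sequenced from the livers of 16 outbred deer mice (Peromyscus maniculatus), 1 library per animal. Control animals (C, n = 6) received regular diet, and the other animals received a high fat diet (HFD) that also contained sucrose, with 58% of its calories from fat, for 28 weeks. The HFD was started at 3 to 4 months of age, and all animals were 10 months old when the livers were taken. HFD animals were divided by liver histology into those without steatosis (NS, n = 5) and those with steatosis (S, n = 5), so NS and S differ in outcome and not in a treatment given to them. C holds 5 males of the BW stock and 1 SM2 male, NS holds 4 BW males and 1 SM2 male, and S holds 3 BW females, 1 BW male and 1 SM2 male. All 3 females were in S, so sex is in part confounded with steatosis.

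In hepatocytes, triglyceride is made by adding fatty acyl groups to a glycerol backbone one after the other. Glycerol-3-phosphate acyltransferases attach the first acyl group, and 1-acylglycerol-3-phosphate acyltransferases attach the next to give phosphatidic acid. Lipins remove the phosphate to give diacylglycerol, and diacylglycerol acyltransferases add the last acyl group. The liver stores the product in lipid droplets or exports it in lipoproteins, and triglyceride stored in excess is what histology records as steatosis.

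The libraries held from 4640733 to 11349971 counted reads, and the smallest were those of S animals 36016 (4640733) and 35982 (4865756). The summed level of 7 hepatocyte markers in the table was 39097 to 51096 CPM (counts relative to library size) in C, 42538 to 63353 in NS and 31684 to 49212 in S. Of these 7 markers, 1 was higher (Apoa1) and 4 were lower (Ttr, Hpd, Fah and Fgb) in S than in C. Over all genes tested, 5.39% were higher and 5.36% were lower at the same threshold, which is given below. S animal 36016 stood apart with a summed stellate cell marker level of 3390 CPM, against at most 504 CPM in any other animal. Most of this sum came from Col1a1 and Col1a2, while the stellate marker Dcn was lower in S than in C. S animal 35990 had the highest summed macrophage and Kupffer cell level, 1182 CPM. Of the 8 adipocyte markers, Adipoq had at most 2 counts and Plin1 at most 1 count in any animal, and Lep and Adrb3 had none. The lipid droplet gene Cidec was at 60.9 to 212 CPM and Car3 at 1502 to 10420 CPM over all animals, and the liver expresses both.

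Levels below are CPM with TMM normalization, listed for C animals 10876, 35972, 35975, 35998, 36001 and 36007, NS animals 10865, 35930, 35937, 35963 and 35987, and S animals 10880, 35955, 35982, 35990 and 36016. Of these, 10876, 10865 and 10880 are the SM2 males, and 35955, 35982 and 35990 are the females. Comparisons are written as S vs C for S relative to C, and differences are log2 fold changes from edgeR's quasi-likelihood test with 1 fit over all 16 animals. A gene was said to pass at a Benjamini-Hochberg adjusted p under 0.1 over the 12639 genes tested. The livers were sampled whole, so fewer cells of a type and less RNA per cell cannot be told apart.

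In the livers with steatosis, 3 of the 8 genes tested differed from controls. Gpam and Pnpla3 were higher in S than in C, by 2.99-fold and 3.94-fold, and Gpat4 was 1.81-fold lower. The other enzymes tested, Agpat2, Agpat3, Lpin1, Lpin2 and Dgat2, did not pass the test. Higher levels were thus recorded for 2 of 8 genes, beside 5.39% of all genes tested, and a lower level for 1 of 8, beside 5.36%. With a fold change of at least 2 also required, 2 of 8 were higher, beside 3.09%, and 0 of 8 were lower, beside 0.965%. The median log2 fold change was 0.07 over the 8 genes and 0.10 over all genes tested.

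**Figure D1:**
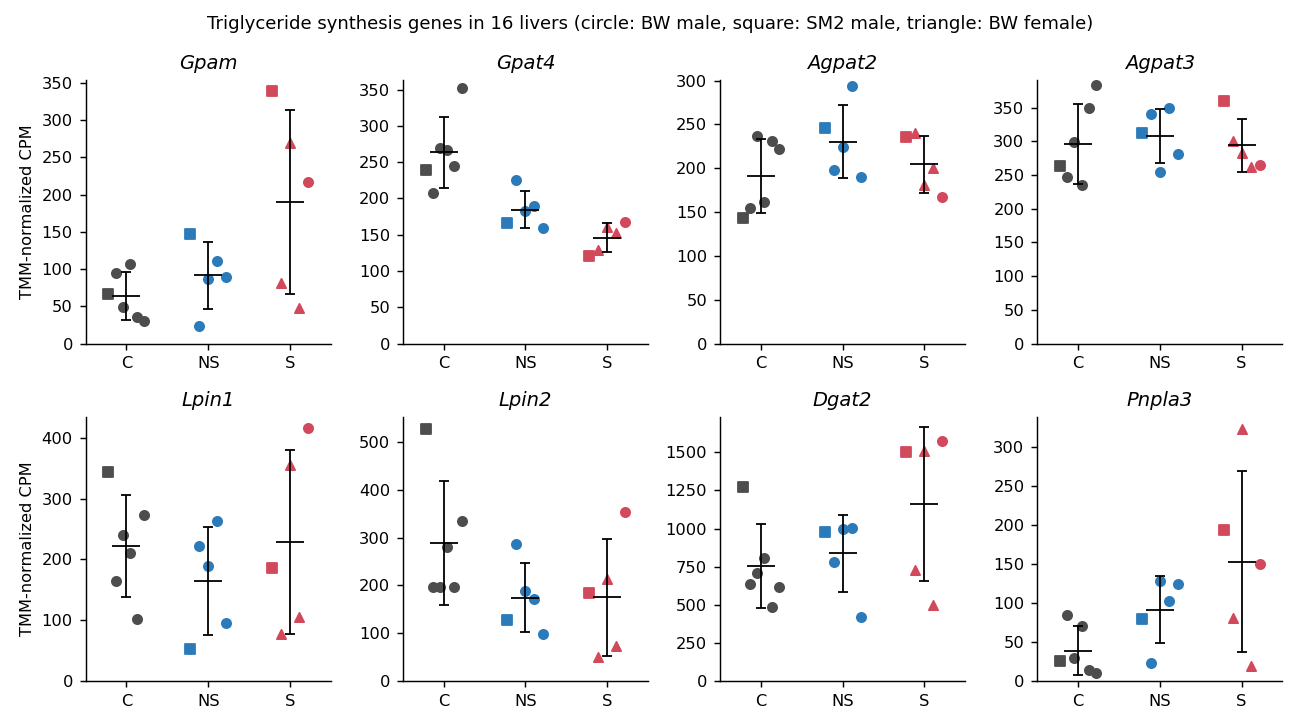
Normalized level (TMM-normalized CPM, axes from 0) of the 8 tested genes in each of the 16 animals, by group (C, NS, S). Each symbol is 1 animal (circle, BW male; square, SM2 male; triangle, BW female) and bars give the mean and SD of the group. All S animals lie below all C animals for Gpat4, and for Gpam, Pnpla3 and Dgat2 the same 3 S animals lie above all others.

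The first step is carried out by Gpam, the mitochondrial glycerol-3-phosphate acyltransferase, and by Gpat4, an acyltransferase of the endoplasmic reticulum and of lipid droplets. Gpam was measured at 66.9, 95.1, 49.0, 106.9, 35.5 and 29.7 CPM in the C animals (63.8 ± 31.7, SD, n = 6). The NS animals had 147.5, 23.9, 87.1, 110.6 and 89.6 CPM (91.7 ± 45.0, n = 5), and the S animals 338.6, 80.8, 268.7, 48.0 and 216.6 CPM (191 ± 124, n = 5). S animals 10880, 35982 and 36016 were above every C and NS animal, while S animals 35955 and 35990 were within the range of C. Gpam was higher in S than in C by 1.58 on the log2 scale (SE 0.49, adjusted p = 0.0738), a fold change with a 95% interval of 1.46 to 6.10. The difference was 0.52 (SE 0.49, adjusted p = 0.812) in NS vs C and 1.05 (SE 0.51, adjusted p = 0.464) in S vs NS, which did not pass.

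The call on Gpam depended on single animals. It was kept when 9 of the 16 animals were left out in turn and lost for the other 7 (C animals 10876, 35975, 36001 and 36007, and S animals 10880, 35982 and 36016), with log2 fold changes of 1.27 to 1.83 and adjusted p of 0.0412 to 0.146. Among BW animals alone Gpam differed by 1.29 (adjusted p = 0.147), and among males alone by 2.12 (adjusted p = 0.0386). Within S, Gpam was at 48.0 to 268.7 CPM in the 3 females and at 216.6 and 338.6 CPM in the males.

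Gpat4 moved in the opposite direction. It was measured at 239.3, 207.6, 269.6, 267.3, 244.6 and 352.0 CPM in C (263 ± 48.9), at 166.1, 225.1, 182.3, 190.0 and 159.5 CPM in NS (185 ± 25.7) and at 120.2, 129.3, 161.1, 151.7 and 167.4 CPM in S (146 ± 20.4). All 5 S animals were below all 6 C animals, and 4 of 5 NS animals were also below every C animal. Gpat4 was the only one of the 8 genes whose S and C animals did not overlap, beside 4.19% of all genes tested. Gpat4 fell by 0.85 on the log2 scale in S vs C (SE 0.15, adjusted p = 0.0125), and ranked 22 by p among the 12639 genes. The call was kept with each of the 16 animals left out, with log2 fold changes of -0.91 to -0.75 and adjusted p of 0.0116 to 0.0335.

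In NS vs C the difference in Gpat4 was -0.51 (SE 0.15, unadjusted p = 0.00286), but its adjusted p was 0.365 by edgeR, while DESeq2 gave 0.0718. In S vs NS the difference was -0.34 (SE 0.15, adjusted p = 0.436). Within S, the females (129.3 to 161.1 CPM) lay between the males (120.2 and 167.4 CPM), and Gpat4 was 1.83-fold lower in S than in C among males alone (adjusted p = 0.0552).

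**Figure D2:**
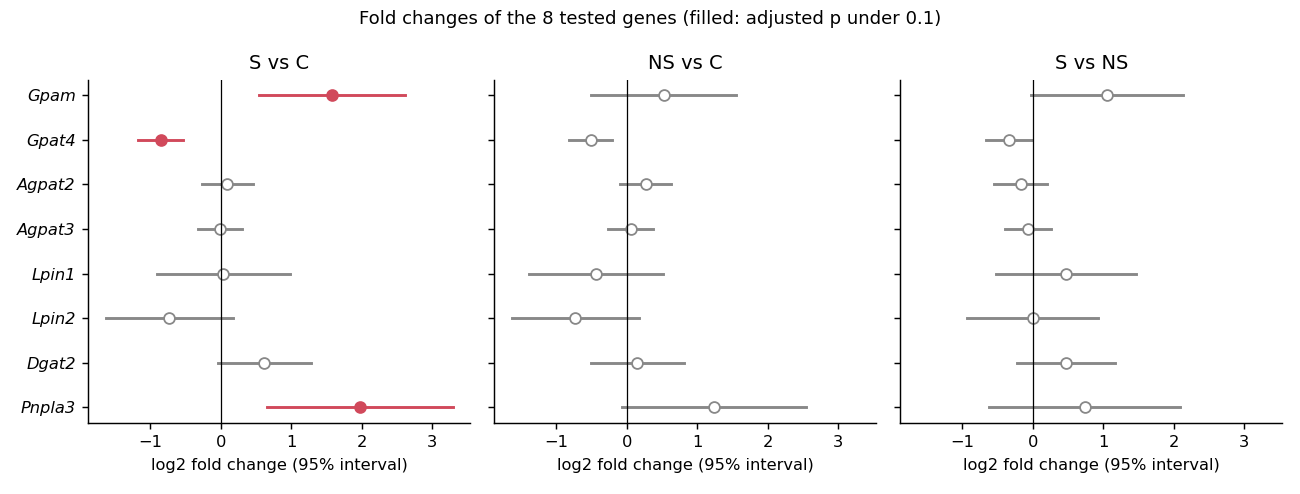
Log2 fold change (x axis) of the 8 tested genes, 1 panel per comparison of the groups, with 95% intervals as lines. Filled points passed an adjusted p of 0.1, which were Gpam, Gpat4 and Pnpla3 in S vs C and no gene in the other comparisons.

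Agpat2 and Agpat3 encode acyltransferases of the next step, which makes phosphatidic acid, and Agpat2 is the gene whose loss causes a congenital form of lipodystrophy. Agpat2 was at 191 ± 42.6 CPM in C, 230 ± 41.8 in NS and 204 ± 32.7 in S, with single animals between 142.7 and 293.4 CPM. Agpat3 was at 296 ± 59.7 CPM in C, 307 ± 39.7 in NS and 294 ± 39.8 in S, with single animals between 234.7 and 383.8 CPM. The groups overlapped for both genes, and these were the genes with the narrowest intervals beside Gpat4. For Agpat2 the 95% interval of the log2 fold change in S vs C was -0.26 to 0.45 (adjusted p = 0.767), and for Agpat3 it was -0.33 to 0.31 (adjusted p = 0.977). A fold change of 2 in either direction thus lies outside both intervals.

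Lpin1 and Lpin2 encode phosphatidate phosphatases, and Lpin1 also acts as a transcriptional coactivator. Lpin1 was at 343.7, 164.0, 240.8, 210.4, 101.2 and 272.3 CPM in C, at 52.1, 222.9, 189.1, 262.8 and 95.6 CPM in NS and at 186.4, 77.5, 356.2, 105.5 and 416.1 CPM in S. The S animals held the highest levels (35982 and 36016) and some of the lowest (35955 and 35990), so the spread in S (228 ± 151) covered that of C (222 ± 84.6). Lpin2 was at 528.9, 196.0, 196.7, 279.7, 196.9 and 334.4 CPM in C, at 127.3, 286.4, 187.9, 171.4 and 98.2 CPM in NS and at 184.6, 50.1, 213.1, 72.4 and 353.8 CPM in S. For Lpin2, 4 of 5 NS animals and 3 of 5 S animals were below every C animal. Its log2 fold change was -0.73 (SE 0.43) both in S vs C (adjusted p = 0.309) and in NS vs C (adjusted p = 0.679), which did not pass. With sex as a covariate it was -0.10 in S vs C (adjusted p = 0.932) and -0.73 in NS vs C. That of Lpin1 was 0.04 in S vs C (SE 0.45, adjusted p = 0.971) and -0.43 in NS vs C (adjusted p = 0.847). The intervals are wide, reaching from -0.91 to 0.99 for Lpin1 and from -1.63 to 0.17 for Lpin2 in S vs C, so neither shows equal levels.

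The last step was represented by Dgat2, a diacylglycerol acyltransferase of the endoplasmic reticulum and lipid droplets. Dgat2 was measured at 1272, 637.7, 708.2, 809.5, 483.9 and 616.8 CPM in C (755 ± 275) and at 979.6, 782.2, 999.3, 1002 and 418.9 CPM in NS (836 ± 251). The S animals had 1499, 725.2, 1509, 499.6 and 1571 CPM (1161 ± 508). S animals 10880, 35982 and 36016, which were highest for Gpam, were above every C and NS animal here too, and S animals 35955 and 35990 were within the range of C. The log2 fold change in S vs C was 0.62 (SE 0.31, 95% interval -0.04 to 1.28, adjusted p = 0.235), which did not pass. Among males alone it was 1.02 and passed (adjusted p = 0.0975), with 2 S animals in that comparison.

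Mogat1 encodes a monoacylglycerol acyltransferase, which makes diacylglycerol by another route. It had 0 to 2 counts in every animal, under the floor of 3 counts. Its highest level, 0.289 CPM in C animal 35972, was under the 0.5 CPM required for testing. Mogat1 was therefore not tested and no fold change was given. A group difference was not detectable at this depth.

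Pnpla3 encodes a lipid droplet protein with reported lipase and acyltransferase activities and is best known for a human variant associated with fatty liver. It was measured at 25.2, 83.8, 29.5, 70.8, 13.6 and 10.5 CPM in C (38.9 ± 30.8) and at 78.8, 23.3, 127.9, 102.5 and 124.3 CPM in NS (91.4 ± 42.8). The S animals had 193.3, 80.6, 322.1, 18.6 and 149.6 CPM (153 ± 116). Again S animals 10880, 35982 and 36016 were above every C and NS animal, S animals 35955 and 35990 were within the range of C, and 3 of 5 NS animals were above every C animal. Pnpla3 was higher in S than in C by 1.98 on the log2 scale (SE 0.63, adjusted p = 0.0782), a fold change with a 95% interval of 1.58 to 9.82. In NS vs C the difference was 1.24 (SE 0.62, adjusted p = 0.626) and in S vs NS it was 0.74 (SE 0.64, adjusted p = 0.695).

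As for Gpam, the call on Pnpla3 in S vs C was kept in 9 of 16 leave-outs. It was lost without C animals 10876, 35975, 36001 and 36007 and without S animals 10880, 35982 and 36016, with log2 fold changes of 1.51 to 2.36 and adjusted p of 0.0412 to 0.177 over the 16 leave-outs. The call was also lost with sex as a covariate (2.15, adjusted p = 0.118), among BW animals alone (1.79, adjusted p = 0.146) and in a fit of only C and S (1.98, adjusted p = 0.104). Among males alone, with 2 S animals, it was kept (2.15, adjusted p = 0.0806). The 3 S animals with the highest levels of Gpam, Dgat2 and Pnpla3 include the 2 animals with the lowest total counts. Among them, animal 36016 is the one with the high stellate marker sum, most of it from Col1a1 and Col1a2. These 3 animals had total counts of 8113314 (10880), 4865756 (35982) and 4640733 (36016). S animals 35955 and 35990 had total counts of 10892425 and 9001731. The part of depth and of stellate cells in these levels was not tested.

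**Figure D3:**
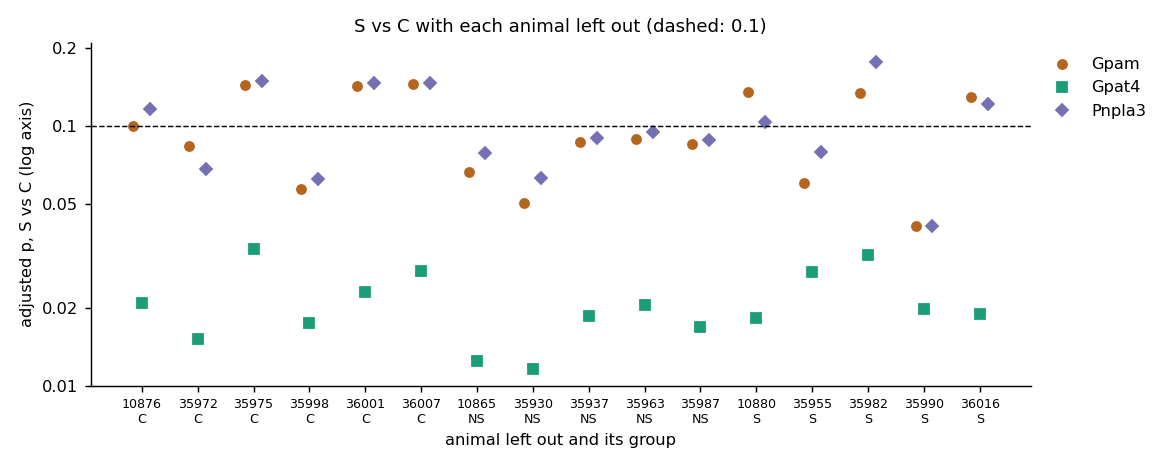
Adjusted p (y axis, log scale) of Gpam, Gpat4 and Pnpla3 in S vs C when each animal on the x axis was left out, with the threshold of 0.1 as a dashed line. Gpat4 stays between 0.0116 and 0.0335, while Gpam and Pnpla3 lie above the line for the same 7 animals.

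No gene of the 8 passed in NS vs C, where 0.0791% of all genes tested passed in either direction, and none passed in S vs NS, where 0.00791% did. At an unadjusted p under 0.05, edgeR gave 1 of 8 genes in each of these comparisons, Gpat4 in both, beside 8.29% of all genes tested in the former and 10.9% in the latter. DESeq2 gave 1 gene in NS vs C (Gpat4, beside 8.64% of all genes) and 2 in S vs NS (Gpam and Gpat4, beside 10.3%), of which Gpat4 in NS vs C passed after adjustment, beside 1.13%. No gene had groups that did not overlap in NS vs C, beside 0.989% of all genes tested, or in S vs NS, beside 1.18%. The median log2 fold change over the 8 genes was 0.10 in NS vs C (0.01 over all genes) and 0.24 in S vs NS (0.04 over all genes). S vs C and NS vs C share the C animals, so their values are not independent.

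To compare enzymes of the same step within an animal, the counts of the first gene were divided by those of the other, a ratio that does not depend on library size. The ratio is read between animals only, since without gene lengths a value of 1 does not mean equal levels. The balance of the acyltransferases of the first step differed between S and C. Gpam to Gpat4 was 0.280, 0.458, 0.182, 0.400, 0.145 and 0.0845 in the C animals, 0.888, 0.106, 0.478, 0.582 and 0.562 in the NS animals and 2.82, 0.625, 1.67, 0.316 and 1.29 in the S animals. The ratios of S animals 10880, 35982 and 36016 were above those of every C and NS animal. The mean log2 ratio was higher in S than in C by 2.24 (SE 0.67), a 4.71-fold difference (two-sided exact permutation test, p = 0.0108, adjusted p = 0.0487 over 9 ratio tests). It differed by 0.97 in NS vs C (exact permutation p = 0.162, adjusted p = 0.244) and by 1.27 in S vs NS (exact permutation p = 0.127, adjusted p = 0.244). Gpam and Gpat4 each passed in S vs C on their own, so the ratio is not independent of those tests.

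The balance of the lipins also differed between S and C over all animals. Lpin1 to Lpin2 was 0.650, 0.836, 1.22, 0.752, 0.514 and 0.814 in C, 0.409, 0.778, 1.01, 1.53 and 0.973 in NS and 1.01, 1.55, 1.67, 1.46 and 1.18 in S. The 3 highest ratios in S (1.55, 1.67 and 1.46) were those of the 3 females, and those of the S males (1.01 and 1.18) were within the range of C. The mean log2 ratio was higher in S than in C by 0.81 (SE 0.22), a 1.75-fold difference (exact permutation p = 0.0108, adjusted p = 0.0487), although neither lipin passed alone. Among males alone the difference was 0.50 (exact permutation, adjusted p = 0.386), but with 2 S males this test had little room to pass. All 3 females were in S, so sex and steatosis cannot be told apart here. It differed by 0.16 in NS vs C (exact permutation p = 0.665) and by 0.65 in S vs NS (exact permutation p = 0.0714, adjusted p = 0.214). Agpat2 to Agpat3 lay between 0.541 and 0.881 in all 16 animals, and its log2 ratio differed by 0.11 in S vs C (SE 0.11, exact permutation p = 0.346, adjusted p = 0.445).

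Both calls on ratios lie close to the threshold of 0.05. When a C or S animal was left out in turn, the adjusted p of Gpam to Gpat4 in S vs C was 0.05 or more for 10 of 11 animals and that of Lpin1 to Lpin2 for 11 of 11, with differences of 1.88 to 2.66 and 0.69 to 0.94. The smallest p that 5 against 6 animals allow is 0.00216.

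**Figure D4:**
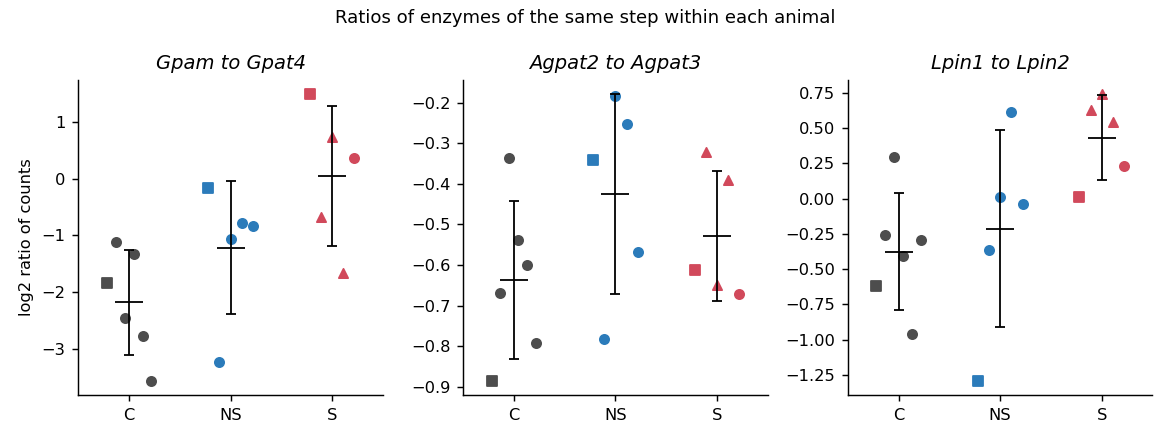
Log2 ratio of counts (y axis) of Gpam to Gpat4, Agpat2 to Agpat3 and Lpin1 to Lpin2 in each animal, by group, with the mean and SD. Symbols mark BW males (circles), SM2 males (squares) and BW females (triangles). For Gpam to Gpat4, 3 of 5 S animals lie above every C and NS animal, and for Lpin1 to Lpin2 the 3 S females lie above every C animal.

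Beyond the group means, some of these genes varied together from animal to animal. With group means subtracted, the log2 levels of the 8 genes and of Srebf1, the transcription factor that drives lipid synthesis genes in response to insulin, were correlated over the 16 animals (36 pairs, 100000 permutations within groups). Of the 36 pairs, 4 passed an adjusted p of 0.05. Gpam went with Pnpla3 (r = 0.90, permutation p = 0.00015, adjusted p = 0.0054; rho = 0.79, permutation p = 0.00177, adjusted p = 0.0290), and r was 0.81 without animals 35930 and 35990, the farthest from the median of Gpam. Gpam also went with Srebf1 (r = 0.79, permutation p = 0.00037, adjusted p = 0.00666; rho = 0.81, permutation p = 0.00082, adjusted p = 0.0290), with r = 0.82 without the same animals. Single animals departed from this pattern, as S animal 35982 had Gpam at 268.7 CPM but Srebf1 at 559 CPM, below the 626 CPM of S animal 35990, whose Gpam was the lowest in S.

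The other pairs joined later steps of the pathway. Lpin1 went with Lpin2 (r = 0.83, permutation p = 0.00072, adjusted p = 0.00864; rho = 0.80, permutation p = 0.00242, adjusted p = 0.0290), with r = 0.84 without animals 10865 and 35955. Lpin2 went with Dgat2 (r = 0.78, permutation p = 0.00428, adjusted p = 0.0385; rho = 0.79, permutation p = 0.00443, adjusted p = 0.0399), with r = 0.78 without animals 35955 and 36016. Gpat4 had negative values with Gpam (r = -0.45), Pnpla3 (r = -0.42) and Srebf1 (r = -0.61, adjusted p = 0.1004), none of which passed, and Agpat2 with Agpat3 (r = 0.70, adjusted p = 0.0733) did not pass either. The animals share their sequencing depth and their normalization in all pairs. Stock differs within each group and sex within S, and neither was removed before the correlation. SM2 males 10865 and 10880 were highest in NS and S for Gpam (147.5 and 338.6 CPM) and for Srebf1 (1492 and 1501 CPM). In C, SM2 male 10876 was highest for neither. Within S, females had lower means than males for Gpam, Pnpla3, Srebf1, Lpin1, Lpin2 and Dgat2. The part of stock and sex in these correlations was not tested.

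**Figure D5:**
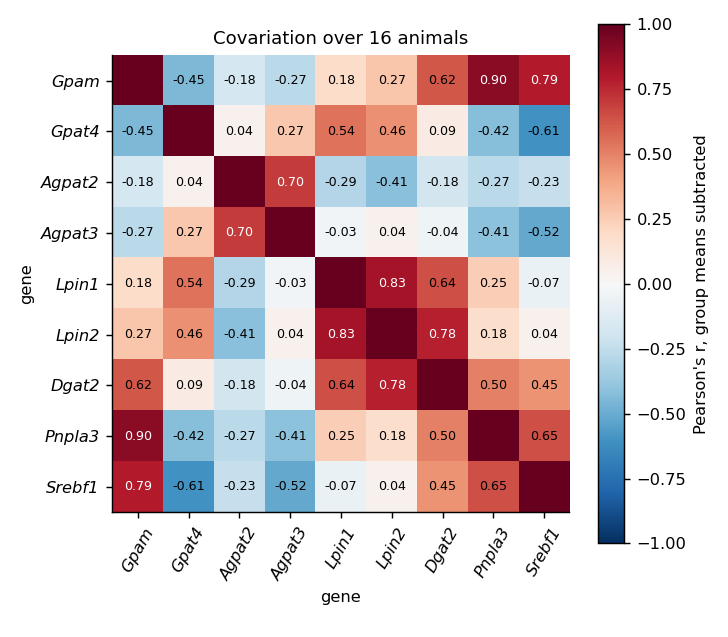
Pearson's r between the log2 normalized levels of the 8 tested genes and Srebf1 over 16 animals, with group means subtracted (color scale from -1 to 1, value in each cell). The highest values off the diagonal are Gpam with Pnpla3 (0.90) and Lpin1 with Lpin2 (0.83).

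For each gene that passed in S vs C, the genes with the most similar pattern over the 16 animals were listed as a description. For Gpam these were Acly (r = 0.91), which makes cytosolic acetyl-CoA for fatty acid synthesis, Notch2 (r = 0.90), a receptor, and Pnpla3 (r = 0.90). For Pnpla3 they were Acly (r = 0.95), Scap (r = 0.94), which escorts SREBP proteins to their activation, and Fgfr2 (r = 0.92), a growth factor receptor. With group means subtracted, these values were 0.91, 0.87 and 0.90 for Gpam and 0.93, 0.92 and 0.90 for Pnpla3. For Gpat4 they were Slc16a10 (r = 0.93), an aromatic amino acid transporter, Etnk2 (r = 0.90), an ethanolamine kinase, and Cdc37l1 (r = 0.89), a cochaperone, of which only Cdc37l1 stayed above 0.80 with group means subtracted (0.83, against 0.75 and 0.57). Srebf1 ranked 12626 for likeness to Gpat4 (r = -0.85), near the end of the genes tested.

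Coordination with the rest of the transcriptome was described by the Pc of each gene, the correlation between its r with every other gene in one group and the same r in another, on the deposited counts. A high Pc is read as relations to other genes that are kept, and a negative Pc as relations that are turned. The counts are not corrected for library size, so differences in depth between animals enter each r and Pc. A high Pc on counts is therefore not by itself a sign of kept coordination. The values on CPM given below are corrected for library size. In S vs C the 8 genes had Pc of -0.039 (Lpin1) to 0.359 (Agpat3), around the median of 0.201 over all genes. On CPM this median was 0.105, and Lpin1 was at 0.117. In NS vs C, Gpam had a Pc of 0.353 (jackknife SE 0.232), at the 99.3 percentile of all genes, and Lpin1 one of -0.255 (SE 0.371), at the 0.900 percentile, with Lpin2 at -0.201 (SE 0.294). The standard errors, which come from leaving out each animal, exceed the sizes of the values of both lipins, and without C animal 10876 these were 0.107 and 0.0908. When CPM replaced the counts, Gpam was at the 59.9 percentile in NS vs C, and Agpat3 in S vs C went from 0.359 to -0.044.

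The remaining genes of the pathway were counted from lists. In S vs C, 5.39% of all genes tested were higher and 5.36% were lower. Of 13 tested genes among the other synthesis enzymes (18 listed), 1 was higher and 0 were lower in S than in C. This was Gpd1, which makes glycerol-3-phosphate from a glycolysis intermediate, at 172 ± 45.8 CPM in C, 335 ± 60.4 in NS and 339 ± 152 in S. Gpd1 was higher by 0.98 on the log2 scale (SE 0.30, adjusted p = 0.0664), and its difference in NS vs C was 0.96 (adjusted p = 0.406). Agpat1 (0.64, adjusted p = 0.136), Agpat5 (-0.44, adjusted p = 0.163) and Mogat2 (2.32, SE 1.07) were the next by p and did not pass, and Mogat2 reached 5.24 CPM in 1 S animal, with a mean of 1.51 ± 2.22 CPM in S. The median log2 fold change of the 13 genes was 0.07, beside 0.10 over all genes.

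Of 5 acyl-CoA synthetases, which activate fatty acids for these enzymes, 1 was higher in S than in C, beside 5.39% of all genes tested. It was Acsl6 (adjusted p = 0.0689), whose call rested on S animal 10880 (33.6 CPM, against at most 1.13 in the other S animals), with 3 counts or fewer in 5 of 6 C animals, and its adjusted p reached 0.507 in the leave-outs. Acsl1 (0.37, adjusted p = 0.275), Acsl5 (0.84, adjusted p = 0.116) and Acsl4 (-0.85, adjusted p = 0.191) did not pass. Of 14 tested genes of triglyceride hydrolysis (18 listed), 0 were higher and 1 was lower, beside 5.39% and 5.36% of all genes tested. This was Hilpda, an inhibitor of adipose triglyceride lipase, at 4.73 ± 5.85 CPM in C and 0.638 ± 0.388 in S (log2 fold change -2.80, adjusted p = 0.0561). Its C animals ranged from 0.156 to 15.1 CPM and overlapped S, and without C animal 36007 the log2 fold change was -1.99 (adjusted p = 0.142). The lipases Pnpla2 (-0.92, adjusted p = 0.126), Mgll (-0.64, adjusted p = 0.155) and Lipe (1.09, adjusted p = 0.125) did not pass. The median log2 fold change was 0.37 over the synthetases and -0.33 over the hydrolysis genes.

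Among 19 tested transcriptional regulators (21 listed), 2 were higher and 0 lower in S than in C, beside 5.39% and 5.36% of all genes. Srebf1 was at 149 ± 91.8 CPM in C, 746 ± 465 in NS and 844 ± 416 in S. It was 5.65-fold higher in S (SE of the log2 fold change 0.49, adjusted p = 0.0198) and passed in 16 of 16 leave-outs, and its log2 fold change in NS vs C was 2.32 (SE 0.49, adjusted p = 0.140). Scap was higher by 0.82 (SE 0.26, adjusted p = 0.0731), and passed in 10 of 16 leave-outs, as Gpd1 did in 9 and Hilpda in 12. Mlxipl, the carbohydrate response factor (1.53, adjusted p = 0.118), and the coactivator Ppargc1a (-0.89, adjusted p = 0.122) did not pass. The median of the regulators was 0.10.

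No gene passed among 14 insulin and fasting reporters or among 13 tested clock genes (14 listed) in S vs C. Among the smallest adjusted p were those of Angptl4 (-2.14, adjusted p = 0.134), an inhibitor of lipoprotein lipase, Igfbp1 (-1.31, adjusted p = 0.305), Arntl (1.79, adjusted p = 0.107) and Per2 (1.06, adjusted p = 0.166). The medians of these lists were -0.04 and 0.01. By edgeR, 2 genes of each list had an unadjusted p under 0.05, beside 23.8% of all genes tested, and DESeq2 passed 1 gene of each, Angptl4 and Arntl.

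In S vs NS or NS vs C, 0 genes of these 6 lists passed by edgeR, beside 0.00791% and 0.0791% of all genes tested. At an unadjusted p under 0.05 edgeR gave, in NS vs C, 2 other synthesis enzymes, 1 acyl-CoA synthetase, 5 hydrolysis genes, 4 regulators, 0 insulin and fasting reporters and 1 clock gene, and in S vs NS 2 synthesis enzymes, 3 hydrolysis genes and 0 of the other lists, where 8.29% and 10.9% of all genes tested reached this p. DESeq2 passed more genes. In NS vs C it passed the carboxylesterases Ces1f and Ces1g and Srebf1 (beside 1.13% of all genes), and in S vs NS it passed 0 (beside 1.16%). In S vs C, where DESeq2 passed 15.8% of all genes, it passed Acsl5, Pnpla2, Lipe, Mlxipl and Ppargc1a besides those named as passing above.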

How the data were processed

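RNA-seq was done on 16 livers of deer mice with a directional paired-end kit. Per the study's methods and the labels, the authors aligned reads with STAR 2.7.2 to HU_Pman_2.1 and assigned reads with 1 mapped location to genes by featureCounts of the Subread package. The deposited table holds raw counts without normalization for 16910 genes by symbol, and 0 columns were left unmapped. The strand setting is not given in the sources used here, so overlapping and antisense genes cannot be told apart. Without gene lengths of this build, neither levels nor ratios were read as more of one gene than of another.

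Counts were tested in R 4.3.3 by edgeR 4.0.16, with limma 3.58.1 (TMM, quasi-likelihood, all 16 animals in 1 fit, no covariates) for 12639 genes that reached 0.5 CPM in 1 animal or more. The call was an adjusted p under 0.1, with and without a fold change of 2. SE were taken from F, and 95% intervals from t. Ratios were compared by exact permutation tests on counts above 10 in every animal, adjusted over 9 tests. Correlations used log2 CPM with a prior count of 2. Python 3.11.15, numpy 2.4.6, pandas 2.3.3, scipy 1.17.1, matplotlib 3.10.9 and DESeq2 1.42.0 were used. P-values of comparisons set the group difference against the spread between animals, and counts near 0 are dominated by counting error.

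The members and lists were chosen with earlier results of these data known. Named were all members, from each list at most 4 genes with the smallest adjusted p in any comparison, and for each member that passed the 3 genes with the highest r. Marker lists of 8 cell types were also counted. Over all genes tested, 5.39% were higher and 5.36% were lower in S vs C. In S vs C, 2 of 8 tested stellate markers were higher (Col1a1 and Col1a2, both through S animal 36016, at 2058 and 1059 CPM) and 1 was lower (Dcn), 1 of 2 adipocyte markers was lower (Car3, which hepatocytes also express), 1 of 8 lymphocyte markers was higher (Cd79b), and 0 of 9 macrophage, 7 endothelial, 6 bile duct and 2 pancreas markers passed. In NS vs C and S vs NS, 0 markers passed by edgeR, beside 0.0791% and 0.00791% of all genes tested. DESeq2 passed Apoa1 and Car3 in the former (beside 1.13%) and Fgb in the latter (beside 1.16%). In S vs C DESeq2 did not pass Col1a1 and Col1a2. Some genes of the lists are not reported here by name. Alternatives were other size factors, filters, covariates, subsets of animals, DESeq2, thresholds and leaving out each animal.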

Additional observations from a re-analysis of the deposited data

How the results depend on the processing

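The number of the 8 genes past the threshold in S vs C was 3, and it was 1 among BW animals alone, 1 at an adjusted p under 0.05, 2 with sex as a covariate, with a fold change of at least 2 or in a fit of only C and S, 4 among males alone, and 1 to 3 with each animal left out. In NS vs C it was 0, and 1 with DESeq2. Gpat4 in S vs C kept an adjusted p under 0.1 in all alternatives run. Signs changed as follows, and no gene that changed sign passed in the comparison concerned. Agpat2 in S vs C was -0.0337 among BW animals. Agpat3 in S vs C was 0.00769 with edgeR's own filter, 0.0780 with sex as a covariate and 0.0784 among males, and in S vs NS 0.0238 and 0.0244 under the latter pair. Lpin2 in S vs NS was -0.00226 without a filter, -0.0196 with stock as a covariate and -0.0878 among BW animals. With each animal left out, log2 fold changes that crossed 0 ranged from -0.00430 to 0.14 (Agpat3, NS vs C), -0.0930 to 0.0777 (Agpat3, S vs C), -0.29 to 0.26 (Lpin1, S vs C) and -0.41 to 0.26 (Lpin2, S vs NS).

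For ratios in S vs C, Gpam to Gpat4 was 1.94 among BW animals and 3.12 among males (adjusted p by exact permutation 0.214 and 0.321), and Lpin1 to Lpin2 was 0.86 and 0.50 (adjusted p 0.214 and 0.386), where fewer animals limit the p. Agpat2 to Agpat3 was -0.0046 among males. Leaving out each animal gave 1.88 to 2.66 for Gpam to Gpat4 and, for Lpin1 to Lpin2, 0.69 to 0.94 in S vs C, -0.0449 to 0.43 in NS vs C and 0.38 to 0.85 in S vs NS, the last with an adjusted p of 0.0476 without NS animal 35963. The ratio of Dgat2 to Dgat1 was planned and not run, since Dgat1 was not analysed here. C, NS and S hold different animals, so no paired analysis was run. Depth limits Mogat1, at 2 counts or fewer.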

Other observations

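In the levels of the 8 tested genes and in the 3 ratios, each taken within C, NS and S (33 sets of values), 0 animals lay far enough from the others of their group to pass Dixon's test at 95%. Marker sums and other genes, such as the stellate markers in S animal 36016 and Acsl6 in S animal 10880, were not among these sets.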
